A study of Sus scrofa with 3 samples.

Results

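GAS6, PROS1 and the receptors AXL, TYRO3 and MERTK were followed in visceral adipose tissue of miniature pigs. These 5 genes of type mRNA were taken by name, and all 5 were among the 22826 mRNA genes with deposited values. Of these, 4 were above 0 in every library and PROS1 was listed at 0 in each. RNA was sequenced from the retroperitoneal fat of male Chinese Wuzhishan pigs, a small breed, which were 6 to 7 months old when obtained. All pigs received a diet rich in fat and cholesterol (HFC) for 12 weeks. The intact males (IM) had a sham incision, the castrated males (CM) were gonadectomized, and the castrated males with testosterone replacement (CMT) received 10 mg/kg testosterone propionate by injection each week. RNA of 4 to 6 pigs per group by the labels, or 4 by the methods, was pooled in equal amounts, and 1 library per group was sequenced, so there are no replicates behind any difference given here.

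GAS6 is a secreted, vitamin K-dependent protein that binds the TAM receptors, a family of receptor tyrosine kinases named after TYRO3, AXL and MERTK. Protein S, the product of PROS1, is the related ligand and is also known as a plasma anticoagulant made largely in the liver. Both ligands carry a domain of gamma-carboxylated glutamates that binds phosphatidylserine on the surface of dying cells, and both can therefore bridge such cells to a phagocyte. AXL binds GAS6 and not protein S, whereas TYRO3 and MERTK bind both ligands. MERTK is known from macrophages that clear dying cells, and AXL from vascular, stromal and dendritic cells.

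Levels are given in UQRPKM, in which the reads on a gene per kilobase of its length are divided by the upper-quartile read number of that library. A constant factor, the same for all genes and libraries, is also applied. The reads behind these values were recovered from their whole-number steps and came to 16611931 for IM, 15561124 for CM and 15106608 for CMT. Each 95% interval is an exact interval from these reads unless named as approximate, and covers counting error only, not the spread between pigs. The labelled tissue was checked by ADIPOQ, the adiponectin gene of fat cells, which was abundant in each library with 74928, 69193 and 63873 UQRPKM in IM, CM and CMT. The CM library also carried liver genes. Their 12 genes summed to 17.9 UQRPKM for IM, 7511 for CM and 22.4 for CMT. The CMT library carried skeletal muscle genes, and the 10 genes of that list summed to 82.5 for IM, 68.3 for CM and 6145 for CMT. Since each group is 1 library, no result could be given without the CM or the CMT library.

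Among the ligands, GAS6 was abundant in all 3 libraries and lowest in CM. Its level was 1097 UQRPKM for IM, 789 for CM and 1267 for CMT. These values rested on 4186, 2867 and 4737 reads, the most of any member. The counting intervals ran from 1064 to 1131 in IM, from 760 to 818 in CM and from 1232 to 1304 in CMT, so none of them overlapped. Of the mRNA genes above 0, 94.7% lay below GAS6 for IM, 92.9% for CM and 95.8% for CMT. In pooled tissue, fewer cells that make GAS6 and less GAS6 RNA per cell cannot be told apart.

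PROS1 was listed at 0 in IM, CM and CMT. A listing at 0 is no proof of absent expression in these values. Of the 133 listed genes found by name, 10 were at 0 in all libraries, among them RAC1, which nearly every cell expresses. Of all 34570 genes of any type, 20838 were above 0 in at least 1 library. PROS1 was at 0 also in the CM library, in which ALB, the albumin gene of hepatocytes, had 2910 UQRPKM. Other vitamin K-dependent genes of the liver were seen in that library. PROC, which encodes the anticoagulant protein C, had 1 read for IM, 346 for CM and 2 for CMT. F2, the prothrombin gene, had 5, 230 and 10 reads. F9, which encodes coagulation factor IX, had 0, 101 and 2 reads. No level, fold change or floor can be given for PROS1, because the length used for it cannot be recovered from values of 0.

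Among the receptors, AXL was by far the most abundant. It had 753 UQRPKM for IM, 638 for CM and 668 for CMT, from 1840, 1486 and 1601 reads. MERTK had 80.0 UQRPKM for IM, 65.1 for CM and 83.0 for CMT, from 178, 138 and 181 reads. TYRO3 had 18.7, 20.7 and 17.7 UQRPKM, from 107, 113 and 99 reads. The order GAS6, AXL, MERTK, TYRO3 was the same in each library, and the counting intervals of neighbours in this order did not overlap within a library. The closest neighbours were GAS6 and AXL in CM. There the interval of AXL ended at 671 and that of GAS6 began at 760.

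AXL made up 88.4% of the summed receptor level in IM, with 88.1% for CM and 86.9% for CMT. The share of MERTK was 9.40%, 8.996% and 10.8%, and that of TYRO3 was 2.20%, 2.87% and 2.30%. The makeup of the receptors thus moved by a few percentage points at most between the libraries. Levels were compared between genes per length. The lengths behind the values were not given, and the shortest ones that fitted whole reads were 2560 bases for GAS6, 1641 for AXL, 1493 for MERTK and 3838 for TYRO3. If the true length of a gene was a multiple of this, its reads were the same multiple and its counting interval was narrower than stated.

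**Figure D1:**
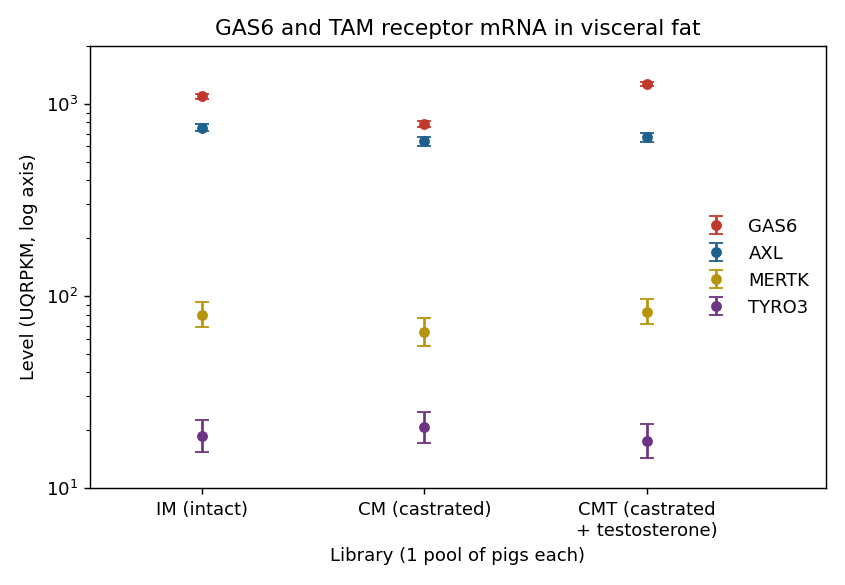
Level of each member in UQRPKM (log axis) in the IM, CM and CMT libraries, with 95% counting intervals as bars. GAS6 is lowest in CM at 789, AXL stays between 638 and 753, and MERTK and TYRO3 lie far below. PROS1, listed at 0, is not drawn.

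Comparison of CM with IM asks how castration altered these genes under the HFC diet. The CM library also carried liver genes, and the part of liver in its values was not tested. No member passed a fold change of 1.5 with at least 1 UQRPKM in both libraries. By this rule 18.8% of the 14123 mRNA genes at 1 UQRPKM or more in both libraries were called, and 5.38% of the 5688 genes that also had a mean of at least 100 UQRPKM. GAS6 was lower in CM by 1.39-fold, with a log2 ratio of -0.48 (95% interval -0.55 to -0.41). AXL was lower by 1.18-fold, with a log2 ratio of -0.24 (-0.34 to -0.14). The intervals of both excluded 0, but so did those of 60.2% of the genes with a mean of at least 100 UQRPKM. A ratio beyond counting error was thus common between these libraries. An exact binomial test on the reads, adjusted over all mRNA genes and without a fold limit, compares the libraries and not the conditions. It called GAS6 and AXL, together with 31.4% of the mRNA genes with reads. The log2 ratio of MERTK was -0.30 (-0.63 to 0.03) and that of TYRO3 was 0.15 (-0.25 to 0.54). At this depth neither differed detectably between CM and IM.

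Comparison of CMT with CM asks how testosterone replacement altered them after castration. GAS6 alone of the 4 measured members passed the fold threshold, and it was 1.61-fold higher in CMT. The rule called 19.5% of 14098 mRNA genes in this comparison, 9.53% as higher in CMT. Among genes with a mean of at least 100 UQRPKM, 6.26% were called and 2.32% were higher in CMT. The log2 ratio of GAS6 was 0.68 (0.62 to 0.75), so the interval stayed above the log2 threshold of 0.58. MERTK was higher in CMT by 1.28-fold, with a log2 ratio of 0.35 (0.02 to 0.68) that barely excluded 0. AXL had a log2 ratio of 0.07 (-0.04 to 0.17). TYRO3 had a log2 ratio of -0.23 (-0.63 to 0.17). The intervals of AXL and TYRO3 included 0. That of AXL, which covers counting error only, reached 1.13-fold upward. Its upper end was a log2 ratio of 0.19 with total or median-of-ratios scaling. An interval without 0 was found for 52.7% of the genes with a mean of at least 100 UQRPKM. The exact test on reads called GAS6 alone of the members, together with 27.9% of the mRNA genes.

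Comparison of CMT with IM asks how far the treated pigs differed from intact ones. No member passed the fold threshold, against 20.7% of 14151 mRNA genes and 7.86% of those with a mean of at least 100 UQRPKM. GAS6 was 1.15-fold higher in CMT than in IM, with a log2 ratio of 0.21 (0.15 to 0.27). AXL was 1.13-fold lower, with a log2 ratio of -0.17 (-0.27 to -0.07). The log2 ratio of MERTK was 0.05 (-0.25 to 0.36) and that of TYRO3 was -0.08 (-0.49 to 0.33). The median log2 ratio of genes with a mean of at least 100 UQRPKM was -0.11 in this comparison, and 40.8% of them lay lower than AXL. With median-of-ratios scaling the log2 ratio of AXL was -0.09 (-0.19 to 0.0056), an interval that included 0. GAS6 thus lay slightly above IM in CMT, whether the interval of AXL excluded 0 depended on the scaling, and neither MERTK nor TYRO3 differed detectably. Intervals without 0 were found for 63.6% of the genes with a mean of at least 100 UQRPKM. The exact test on reads called GAS6 and AXL, together with 34.4% of the mRNA genes. The comparisons share libraries, so their ratios are not independent of each other.

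**Figure D2:**
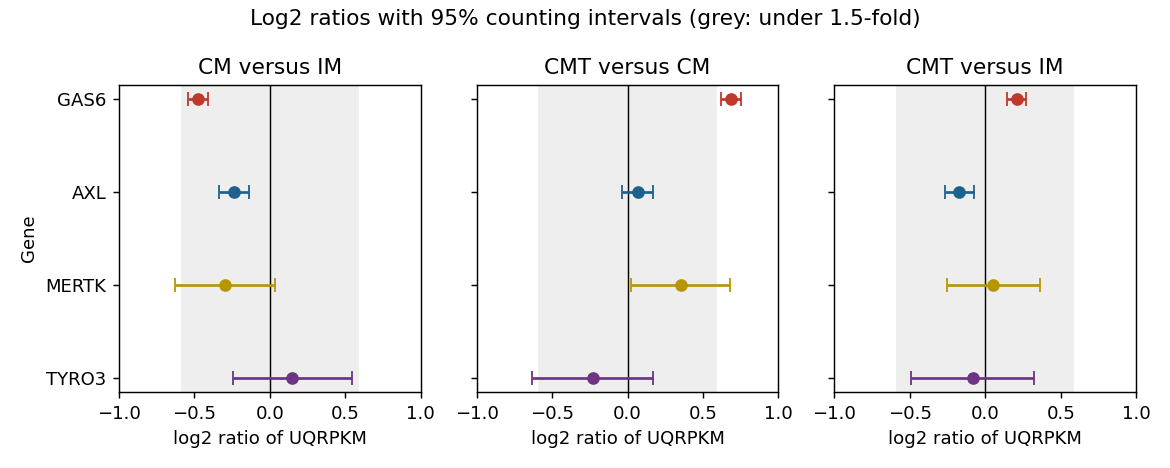
Log2 ratio of UQRPKM for each member in the CM/IM, CMT/CM and CMT/IM comparisons, with 95% counting intervals as bars and ratios under 1.5-fold shaded grey. GAS6 in CMT versus CM, at 0.68, is the only point outside the shaded range.

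GAS6 differed more between libraries than AXL, the most abundant receptor, and the ratio of ligand to receptor differed with it. GAS6 exceeded AXL by 1.46-fold for IM, by 1.24-fold for CM and by 1.90-fold for CMT. The log2 difference of this ratio was -0.24 (approximate 95% interval -0.36 to -0.12) in CM versus IM and 0.62 (0.50 to 0.74) in CMT versus CM. In CMT versus IM it was 0.38 (0.27 to 0.49). The ratio of GAS6 to MERTK was 13.7 for IM, 12.1 for CM and 15.3 for CMT. Its log2 difference was -0.18 (-0.51 to 0.15) in CM versus IM and 0.33 (0.01 to 0.66) in CMT versus CM. GAS6 and MERTK shared the order of their libraries, with CM lowest and CMT highest, although for MERTK the differences from IM were within counting error. Scaling of the libraries cancels in these ratios.

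Among the 5687 mRNA genes with a mean of at least 100 UQRPKM and a value above 0 in each library, the median log2 ratio was close to 0. It was -0.07 in CM versus IM over 5688 genes and -0.03 in CMT versus CM over 5689 genes. Of these genes, 5.77% had a lower ratio than GAS6 in CM versus IM and 1.60% had a higher one in CMT versus CM. A level in CM below both other libraries was common and was found for 1831 of the 5687 genes (32.2%). Differences at least as large as those of GAS6 in both directions were found for 38 genes (0.668%), GAS6 included. Both ratios share the CM library and are not independent.

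**Figure D3:**
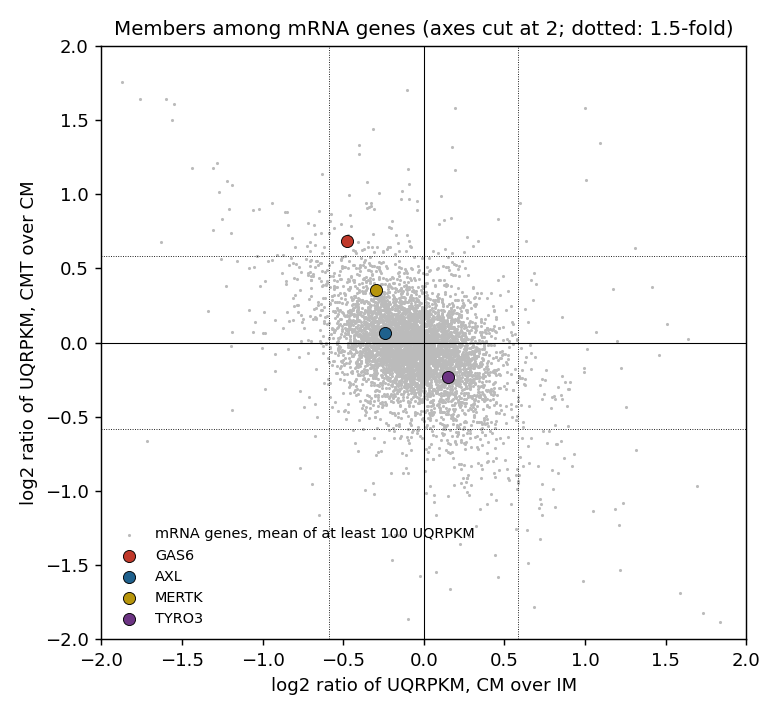
Log2 ratio of UQRPKM in CM over IM (horizontal) against CMT over CM (vertical) for 5687 mRNA genes with a mean of at least 100 UQRPKM (grey) and the 4 measured members (coloured), with dotted lines at 1.5-fold. GAS6 lies at -0.48 and 0.68 at the upper left edge of the cloud, AXL, MERTK and TYRO3 lie within it, and 33 genes fall outside the axes.

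The genes with a pattern most like that of GAS6 were found by the distance between pairs of log2 ratios, CM over IM and CMT over CM, over the 3 libraries. The nearest was PRPF3, a splicing factor gene, at a distance of 0.04. It had 106 UQRPKM for IM, 76.6 for CM and 127 for CMT. GSTA4, a glutathione transferase gene, followed at 0.07 with 128, 96.2 and 154 UQRPKM. LRRC42 lay at 0.07, FGL2 at 0.08 and LTBP3 at 0.10. FGL2 encodes a fibrinogen-like protein and LTBP3 a binding protein of latent TGF-beta. Only these 5 genes lay within 0.1 of GAS6, whereas 407 genes lay within 0.1 of AXL, 220 of TYRO3 and 102 of MERTK. The nearest genes were STIP, PREP and CCDC9 for AXL, CRIPT, ATG4A and BLOC1S1 for TYRO3, and PTH1R, SMIM20 and LOC100518422 for MERTK. With 3 libraries such likeness is a description of 3 values per gene.

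GAS6 needs vitamin K for its activity, since its glutamates are carboxylated by GGCX with reduced vitamin K as cofactor. Of the 5 genes listed for the vitamin K cycle, none passed the fold threshold in any comparison. Of all mRNA genes, 18.8%, 19.5% and 20.7% passed it in the CM/IM, CMT/CM and CMT/IM comparisons. A count of 0 in so short a list is thus no sign of particular stability. GGCX had 397, 362 and 378 UQRPKM in IM, CM and CMT. VKORC1, the epoxide reductase that recycles vitamin K, had 1419, 1270 and 1401 UQRPKM. The values of both were lowest in CM, by much less than that of GAS6. Their log2 ratios in CM versus IM were -0.13 and -0.16. For GGCX the difference between CMT and CM was within counting error, with a log2 ratio of 0.06 (-0.03 to 0.16). For VKORC1 it was 0.14 (0.03 to 0.26). VKORC1L1, a related reductase, had 233, 287 and 246 UQRPKM and was highest in CM. AIFM2, also called FSP1 and known to reduce vitamin K, had 2444, 2856 and 1952 UQRPKM, and its log2 ratio of -0.55 in CMT versus CM came nearest to the threshold. NQO1, a quinone reductase, had 208, 200.1 and 152 UQRPKM. The median log2 ratio of the list was -0.06 in CM versus IM, with -0.23 in CMT versus CM, and was -0.07 in CMT versus IM. The median of all mRNA genes at 1 UQRPKM or more was -0.06, -0.02 and -0.08, respectively.

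Of 12 other vitamin K-dependent proteins, 9 were found by name, and 5 could be compared in CM versus IM. MGP, the matrix Gla protein that restrains calcification, was the most abundant. It had 5700 UQRPKM for IM, 6150 for CM and 12210 for CMT, from 4994, 5135 and 10482 reads. MGP was thus 1.99-fold higher in CMT than in CM but, unlike GAS6, was not lower in CM than in IM. In CM versus IM, F2 alone of the 5 compared passed the threshold. PROC, F7 and F9 were not compared, because their values in IM lay under the minimum of 1 UQRPKM. They had 152, 4.70 and 27.6 UQRPKM for CM, the library that carried liver genes, and under 1 UQRPKM for CMT. In CMT versus CM, MGP was higher and F2 was lower, and in CMT versus IM both were higher, F2 from 10 and 5 reads. The genes past the threshold were 20%, 40% and 40% of those compared in CM/IM, CMT/CM and CMT/IM. The shares of all mRNA genes were 18.8%, 19.5% and 20.7%. The median log2 ratio of the list was 0.01, -0.04 and 0.27 in the same order. PRRG2, a membrane Gla protein, had 144, 114 and 110 UQRPKM. BGLAP, the osteocalcin gene, rested on 11, 9 and 9 reads.

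The soluble form of AXL and MERTK is released from the cell surface by the proteases ADAM10 and ADAM17. None of the 4 shedding genes found passed the fold threshold, which 18.8%, 19.5% and 20.7% of all mRNA genes passed in CM/IM, CMT/CM and CMT/IM. ADAM10 had 318, 311 and 296 UQRPKM in IM, CM and CMT. ADAM17 had 82.1, 81.2 and 92.0 UQRPKM. RHBDF1 and RHBDF2, the iRhoms that carry ADAM17 to the surface, had 170, 173 and 136 and 61.5, 65.1 and 62.1 UQRPKM, respectively. The shedding genes differed little between IM and CM, with log2 ratios from -0.03 to 0.08 and a median of 0.0026. The median was -0.07 in CMT versus CM. RNA levels say nothing of the amount of protein or of shedding.

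Among genes that act with or below the TAM receptors, 14 of 18 were found and 11 could be compared in each comparison. None passed the fold threshold in CM versus IM or in CMT versus IM, against 18.8% and 20.7% of all mRNA genes. AKT2, a kinase downstream of many receptors, was the only gene past it in CMT versus CM (9.09%, against 19.5%). It had 2132 UQRPKM for IM, 2681 for CM and 1647 for CMT. This order was opposite to that of GAS6. C4BPA, a chain of the complement regulator that binds protein S in plasma, had 1458, 1439 and 1660 UQRPKM. NR1H3, a liver X receptor known to raise MERTK in macrophages, had 783, 750.4 and 710 UQRPKM. TWIST1, a transcription factor linked to AXL, had 606, 715 and 873 UQRPKM. SOCS1, a brake on cytokine signalling, had 61.6, 50.3 and 52.9. SOCS3 and IFNAR2 were listed at 0. The median log2 ratio of the list was -0.09, -0.05 and -0.14 in the CM/IM, CMT/CM and CMT/IM comparisons.

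Genes for the recognition and engulfment of dying cells were mostly under the fold threshold as well. Of 29 genes, 25 were found and 22 could be compared. In CM versus IM 1 was higher and 1 was lower by 1.5-fold or more, and the same counts were found in the other comparisons. This is 9.09% of the genes compared, which lies between the share of all mRNA genes and that of genes with a mean of at least 100 UQRPKM in each comparison. The median log2 ratio of the list was -0.15 for CM against IM, 0.04 for CMT against CM and -0.07 for CMT against IM. ANXA1, the annexin that resolves inflammation, was the gene higher in CM, at 5162 UQRPKM against 2930 in IM and 3511 in CMT. LRP1, a large endocytic receptor, was the gene lower in CM. It had 1165 UQRPKM for IM, 765 for CM and 1003 for CMT. Like GAS6, LRP1 was lowest in CM, with log2 ratios of -0.61 (-0.64 to -0.57) in CM versus IM and 0.39 (0.35 to 0.43) in CMT versus CM.

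THBS1, the thrombospondin that bridges dying cells to CD36, was the gene of this list that stood highest in CMT relative to CM. It had 257 UQRPKM for IM, 195 for CM and 469 for CMT. ABCA1, the cholesterol exporter, had 191, 146 and 210 UQRPKM, and its log2 ratio of 0.53 in CMT versus CM stayed under the threshold. MEGF10, an engulfment receptor, was lower in CMT, from 74 reads for IM, 74 for CM and 48 for CMT. MFGE8, the other well-known bridge to phosphatidylserine, had 1468 UQRPKM for IM, 1086 for CM and 1068 for CMT. MFGE8 was thus lower than in IM in both castrated groups, whereas GAS6 was not low in CMT. Its integrin partners ITGAV and ITGB5 had 155, 122 and 147 UQRPKM and 1190, 1039 and 1150 UQRPKM, and these were lowest in CM. By the mean over the libraries, ANXA5, CD36, C1QC and C1QA were the most abundant genes of the list apart from ANXA1. ANXA5, a phosphatidylserine-binding annexin, had 10371, 11728 and 9410 UQRPKM. CD36, a scavenger receptor and fatty acid carrier, had 4275, 5289 and 4756. C1QC had 3222, 2618 and 2452 UQRPKM, and C1QA had 2833, 2100 and 1993 UQRPKM. These chains of complement C1q were highest in IM, and C1QB, the third chain, had 763, 871 and 896 UQRPKM in a different order.

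**Figure D4:**
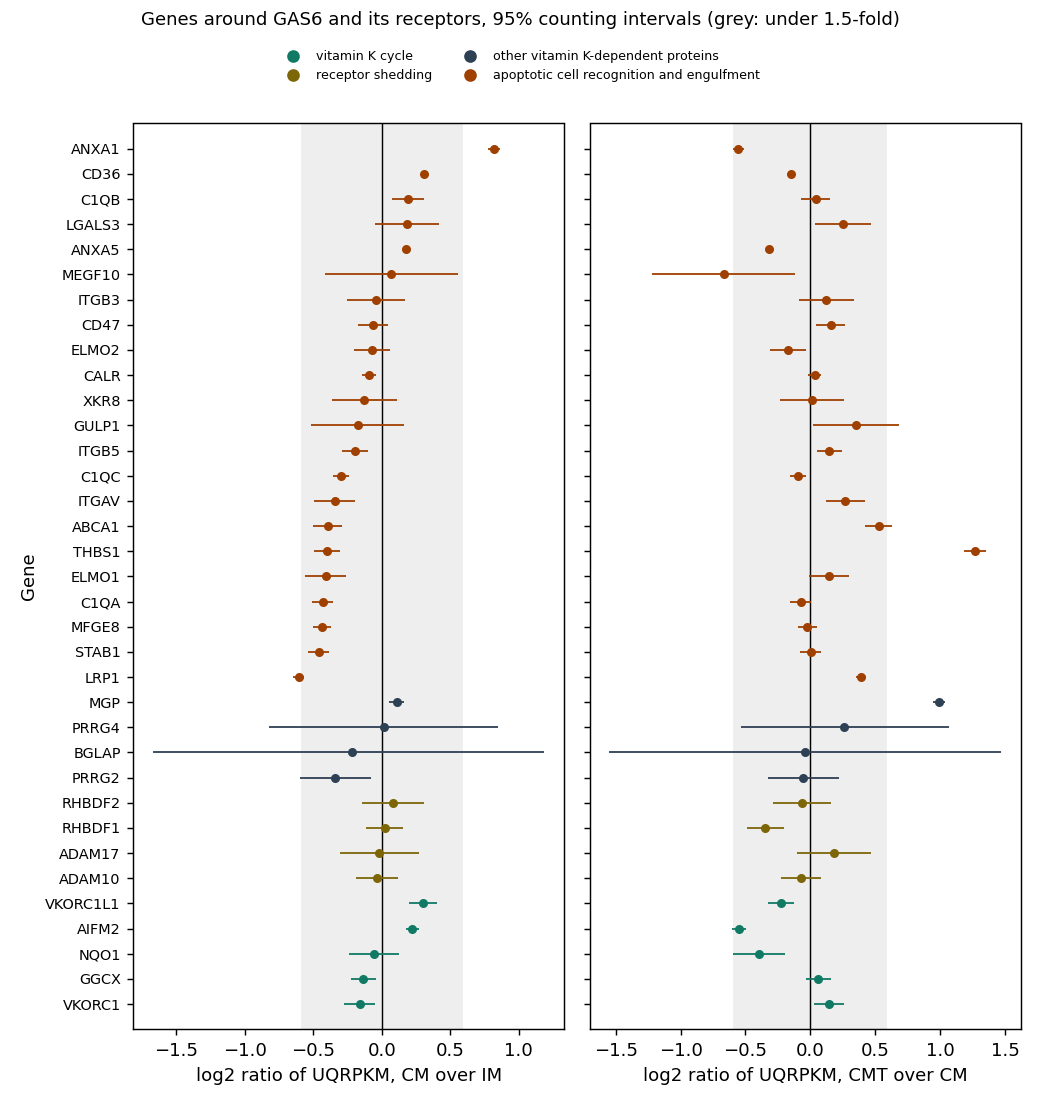
Log2 ratio of UQRPKM in CM over IM (left) and CMT over CM (right) for genes of 4 lists (vitamin K cycle, receptor shedding, other vitamin K-dependent proteins, engulfment) with at least 1 UQRPKM in each library, with 95% counting intervals as bars and ratios under 1.5-fold shaded grey. F2 lies beyond the axes and is not drawn. On the left ANXA1 and LRP1, and on the right THBS1, MGP and MEGF10, have values outside the shaded range.

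MERTK was read beside macrophage genes because macrophages are its best-known source. Of 11 macrophage genes compared, 4 were higher in CM than in IM by 1.5-fold or more and 7 were under the threshold. The median log2 ratio of the list was 0.35 for CM against IM and -0.22 for CMT against CM, in which 5 genes were lower and none was higher. These are 36.4% and 45.5% of the genes compared, against 18.8% and 19.5% of all mRNA genes. The list was, however, chosen with earlier results of these data known. The study had reported LOC100520753 (CD68), EMR1 and GP91-PHOX as higher in CM from the same libraries. For CD68 and EMR1 it also reported higher levels in CM by quantitative real-time RT-PCR, given as n = 4 per group. Because of how the list was chosen, no conclusion is drawn from the excess over all genes. The 4 genes higher in CM were LOC100520753 (CD68), EMR1, MARCO and GP91-PHOX. All 4 were lower in CMT than in CM, together with ITGAM, which had 108, 138 and 73.5 UQRPKM. EMR1 had 45.6 UQRPKM for IM, 93.6 for CM and 30.6 for CMT. The value of MERTK was lowest in CM, by less than its counting error against IM. CSF1R, the receptor for macrophage colony-stimulating factor, had 285, 246 and 221 UQRPKM. MRC1, the mannose receptor, had 109, 105 and 121 UQRPKM, and like MERTK it was lowest in CM and highest in CMT. Its difference between CM and IM was also within counting error, with a log2 ratio of -0.06 (-0.21 to 0.09). CD163 was listed at 0 in each library. The summed level of the 12 listed genes was 1394 UQRPKM for IM, 1610 for CM and 1302 for CMT. Their part in the values of MERTK was not tested.

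GAS6 and AXL were read beside marker genes of stromal and vascular cells. The smooth muscle and pericyte list had 7 genes to compare. Of these, 2 (28.6%, against 18.8% of all mRNA genes), CNN1 and DES, were lower in CM than in IM and none was higher. CNN1, the calponin of smooth muscle, had 153 UQRPKM for IM, 101 for CM and 142 for CMT. ACTA2, the smooth muscle actin gene, had 2643, 1800 and 1654 UQRPKM. The sum of the 8 listed genes was 6481 for IM, 5085 for CM and 5268 for CMT, so it stayed below IM in CMT, unlike GAS6. MYH11 of this list was listed at 0. DES, also a gene of skeletal muscle, had 52.9, 33.0 and 459 UQRPKM. The difference of the sum between CM and CMT was smaller than that of DES alone. Of 10 fibroblast and progenitor genes, 2 (20%) were lower in CM than in IM and 1 (10%) was higher in CMT than in CM (all mRNA genes, 18.8% and 19.5%). The lower genes were COL1A1 and DPP4, and DPP4, from 51, 30 and 66 reads, was also the higher one. PDGFRA, a marker of adipose progenitors, had 288, 306 and 434 UQRPKM, and COL1A1 had 4453, 2235 and 2580. The summed level of this list was 77764, 74797 and 72989 UQRPKM in IM, CM and CMT. No endothelial gene compared passed the threshold, which 18.8%, 19.5% and 20.7% of all mRNA genes passed in CM/IM, CMT/CM and CMT/IM. TIE1, with 13, 12 and 0 reads, was left out of the comparisons with CMT, so that 5 of 6 genes remained there. The endothelial sum was 8663, 7717 and 8315 UQRPKM. Its largest part was PECAM1, with 4338, 4038 and 4735 UQRPKM. TEK, with 208, 178 and 217 UQRPKM, was also higher in CMT than in CM. VWF, KDR, CLDN5 and TIE1 were lowest in CMT, with VWF at 1570, 1257 and 1197 UQRPKM. The 6 adipocyte genes found summed to 131389, 122400 and 105490 UQRPKM, most of it ADIPOQ. Of these 6, LEP, the leptin gene, alone passed the threshold, in CM/IM and in CMT/CM (16.7% in each, against 18.8% and 19.5%). It had 167 UQRPKM for IM, 502 for CM and 156 for CMT, and was thus highest in the library in which GAS6 was lowest.

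The mesothelial, liver and skeletal muscle genes moved most between libraries. Of 5 mesothelial genes compared, 4 were higher and 1 was lower in CMT than in CM, where 19.5% of all mRNA genes were called. The higher genes were MSLN, UPK3B, KRT8 and WT1, and the lower one was KRT18. MSLN had 6.47, 15.4 and 59.5 UQRPKM in IM, CM and CMT. The summed mesothelial level was 122 for IM, 205 for CM and 495 for CMT. The skeletal muscle genes were all higher in CMT than in CM among the 8 compared, and GAS6 was highest in the same library. Defining markers of mesothelium such as LRRN4 and of muscle such as CKM were listed at 0, which is no proof of absent expression in these values. The part of these cells in the values of GAS6 and its receptors in CMT, or of liver in those of CM, was not tested. With 1 library per group, the makeup of the sample cannot be told apart from castration or treatment.

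**Figure D5:**
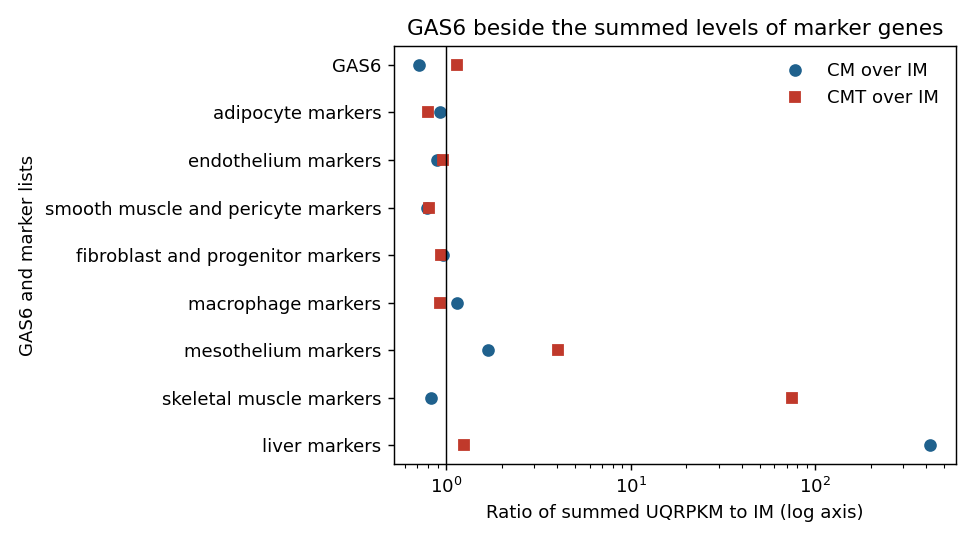
Level of GAS6 and summed levels of 8 marker lists in CM and CMT, as ratios to IM on a log axis. GAS6 lies below 1 in CM and above it in CMT, the macrophage sum shows the reverse order, and liver markers in CM and skeletal muscle markers in CMT stand far to the right.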

How the data were processed

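Values were analysed for 3 libraries, 1 pool of pigs per group, assigned by their labels. Per the study's methods, the authors filtered single-end Ion Proton reads, mapped them to Sscrofa10.2 with MapSplice and deposited RPKM values in which an upper-quartile read number replaces the total reads (UQRPKM). The counting tool, annotation and handling of strand and multiply mapped reads are not given in the sources used here. Gene symbols are as deposited, and no coordinates or sequences are given because no reference of that build was used.

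Reads were recovered as the smallest whole numbers that fitted all values of a gene, with fitted upper quartiles of 149, 142 and 146 for IM, CM and CMT. Lengths up to 120000 bases were searched, with a tolerance of 0.55 units of the last printed digit, and all 20838 genes above 0 (100%) gave whole numbers. The 75th percentile of these reads over all genes was 138, 132 and 136, below the fitted upper quartiles, and some reads may be low by a whole factor. Intervals for log2 ratios are exact Clopper-Pearson intervals of the share of reads, intervals for levels are exact Poisson intervals, and those for ratios between genes are approximate (delta method). Reads are not independent molecules, so all cover counting error only.

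A gene was called at a fold change of 1.5 with at least 1 UQRPKM in both libraries, without a test. DEGSeq, used by the authors, was not run. An exact binomial test on reads, Benjamini-Hochberg adjusted over mRNA genes at 0.05, was an alternative that compares libraries and not conditions. The other alternatives were total and median-of-ratios scaling, pseudocounts of 1 and 10, no minimum, a minimum of 10 and a fold change of 2. Scripts were tested on simulated data.

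The members and gene lists were chosen with earlier results of these data known, and some genes are not reported here. Named genes were all members, every gene of the vitamin K cycle and shedding lists, up to 4 of the most abundant genes of other lists, and the 5 genes nearest to GAS6 and 3 nearest to each other member among those with a mean of at least 100 UQRPKM. List genes past 1.5-fold could be named, but not all were. Other list genes were named after their values were seen. Python 3.11.15 and SciPy 1.17.1 were used.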

Additional observations from a re-analysis of the deposited data

How the results depend on the processing

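The count of members past the thresholds was 0 between CM and IM, 1 (GAS6) between CMT and CM, and 0 between CMT and IM. These counts were the same under total scaling, median-of-ratios scaling, a pseudocount of 1, no minimum, a minimum of 10 UQRPKM and the exact binomial test with the fold threshold kept. A fold change of 2 left 0 members in CMT versus CM. The exact binomial test without the fold threshold called 2 members, GAS6 and AXL, between CM and IM, and the same count between CMT and IM. In CMT versus CM it called GAS6 alone, so the MERTK interval that excluded 0 did not carry through the adjustment over all genes. Of 48 log2 ratios of members under other scalings and pseudocounts, 47 stayed within the counting interval and 1 moved beyond it, that of GAS6 in CMT versus IM, which was 0.29 with median-of-ratios scaling. None changed direction in a called comparison. The counting interval of AXL in CMT versus IM, however, came to include 0 with median-of-ratios scaling (-0.19 to 0.0056). Median-of-ratios scaling shifted every log2 ratio by 0.06, 0.02 and 0.08 in the CM/IM, CMT/CM and CMT/IM comparisons. No paired analysis was possible because each group is 1 library. Leaving out a replicate was not possible for the same reason. Depth limits TYRO3, for which the interval in CM versus IM reached from 0.843-fold to 1.46-fold.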

Other observations

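Genes next to the members were looked up in the gene order of Sscrofa11.1, another assembly than that of the values, after the values had been seen. Beside GAS6 on chromosome 11, TMEM255B had 0, 1.23 and 0.597 UQRPKM in IM, CM and CMT and GRK1 had 0.792, 0 and 0. These lie on 1 side of GAS6. The 2 genes on its other side have no value here. Beside AXL on chromosome 6, HNRNPUL1, an RNA-binding protein gene, had 921, 814 and 946 UQRPKM, a level like that of AXL. Its value was highest in CMT, whereas that of AXL was highest in IM. CCDC97, the next gene on that side, had 8.29, 25.3 and 22.3 UQRPKM. Whether the counting used strand is not given in the sources used here. Beside PROS1 on chromosome 13, EPHA3, an ephrin receptor gene, had 27.9, 18.3 and 47.5 UQRPKM, with a log2 ratio of -0.61 between CM and IM and of 1.37 between CMT and CM. Beside TYRO3 on chromosome 1, RPAP1 had 110, 88.5 and 81.9 UQRPKM. Beside MERTK on chromosome 3, ANAPC1 had 85.2, 75.3 and 66.1 UQRPKM, an order unlike that of MERTK.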
